A study of Mus musculus with 12 samples.

Results

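Casp1, which encodes the inflammatory protease caspase-1, was followed together with 8 genes of the inflammasome pathway in mouse cerebral cortex. The 9 genes (Casp1, Casp4, Casp8, Nlrp3, Pycard, Aim2, Il1b, Il18 and Gsdmd) were looked up by symbol among the 34193 rows of the deposited table, and each had a single row. Casp1 was chosen by its normalised reads in these same libraries, which an earlier look had shown to be raised in the conditional knockout (cKO), so its own difference is described and not tested. The other 8 were named for their roles as sensors, adaptor, caspases and substrates, and the question was whether the rise of Casp1 came with them.

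The cKO animals were Nsd1 flx/flx and Nestin-cre +/-, and the controls were Nsd1 flx/flx and Nestin-cre -/-, with 6 libraries each, made at 8 weeks of age from 250 ng of total RNA depleted of ribosomal RNA. Every animal thus carried the loxP-flanked Nsd1 alleles, and no group carried Cre without them, so an effect of the transgene itself cannot be told apart from that of the lost gene. NSD1 methylates lysine 36 on histone H3, and the title of the series links it to neuronal DNA methylation at sites other than CG. Nestin-Cre acts in neural progenitors and their descendants, the neurons, astrocytes and oligodendrocytes, whereas microglia descend from another lineage. Biological replicates are named in the labels without animal numbers, and p-values here reflect no more than the scatter among the 12 libraries.

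Inflammasomes are cytoplasmic complexes that turn the detection of infection or cell damage into secreted cytokines. A sensor such as NLRP3 or AIM2 nucleates filaments of the adaptor ASC, the product of Pycard, which gather and activate caspase-1. Active caspase-1 cleaves the precursors of interleukin-1 beta and interleukin-18 and opens gasdermin D, whose fragment forms membrane pores. In the brain this machinery is best known from microglia. Transcript levels, measured here, do not report on cleavage.

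The libraries held 14.6 to 27.0 M reads on genes in the cKO and 10.5 to 21.1 M in the controls. Columns 1 to 3 of each genotype carried Y-linked reads (Y-positive libraries) and columns 4 to 6 did not (Y-negative), a split at odds with the labelled sex for 8 of 12 column numbers, so columns were assigned to genotypes only. Control libraries 4 and 5 held 14.2% and 11.5% of mitochondrial ribosomal RNA, against 1.46% to 6.00% in the other 10 libraries. Nsd1, the targeted gene, stood at 3251 ± 299 normalised reads in the cKO and 4235 ± 850 in controls (SD over 6 libraries each; log2 fold change -0.36, limma adjusted p = 0.383), a gene-level value in which the loxP-flanked part is not separated. The summed level of 10 cortical excitatory neuron markers was 38144 to 44669 normalised reads in the cKO and 34098 to 49239 in controls, and all 10 passed the filter on low values.

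The caspase that the pathway converges on was the member that stood apart. Casp1 had 108, 115, 176, 197, 157 and 159 normalised reads in cKO libraries 1 to 6, against 29.6, 24.7, 43.0, 35.7, 58.7 and 31.3 in control libraries 1 to 6. Every cKO library lay above every control, and the lowest cKO value was 1.84 times the highest control value. Such a complete separation upwards was found for 0.813% of the 14397 genes tested, an increase past the threshold (limma, adjusted p under 0.05) for 0.764% and a decrease for 0.0695%, a background from which nothing is read for Casp1, since these values chose it.

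The mean Casp1 level was 152 ± 34.5 normalised reads in the cKO and 37.2 ± 12.2 in controls (SD, n = 6 each), a ratio of 4.09. Its log2 fold change of 2.03 was the 8th largest among the tested genes. Casp1 was a weakly expressed gene, with a lower mean than all but 22.1% of them, and its values rested on 143 to 200 reads per library in the cKO and 19 to 50 in controls. Within the Y-positive libraries the log2 fold change was 2.01, and within the Y-negative ones 2.05. The difference of -0.04 between these library sets did not pass the test (limma adjusted p = 0.974). The choice of Casp1 by its rise over these same libraries favours a rise in both sets, so nothing is read from this. No gene of the 14397 passed the limma test of this difference at an adjusted p under 0.05, and 8.77% had an unadjusted p under 0.05. For the same difference edgeR called 0 genes and DESeq2 called 3.

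**Figure D1:**
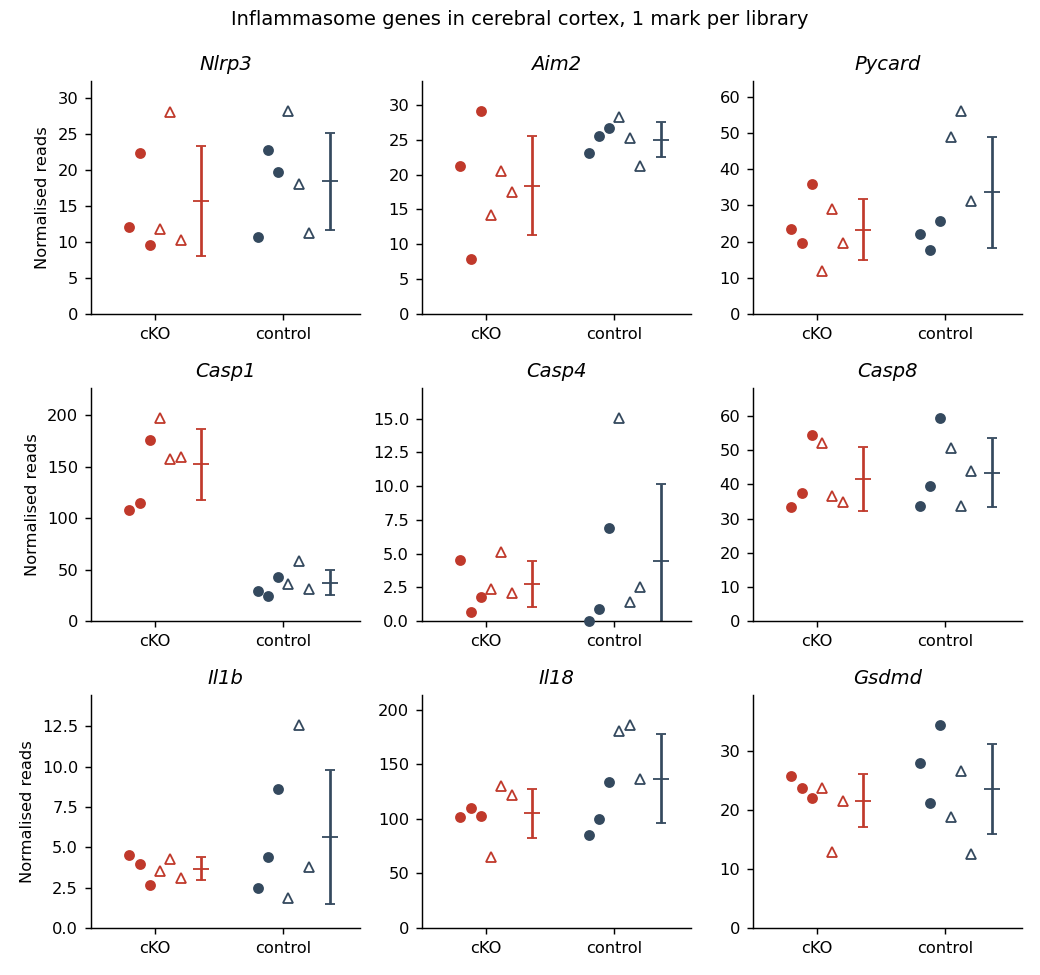
Normalised reads of the 9 genes in each library, with cKO at left and controls at right. Filled circles are libraries with Y-linked reads, open triangles those without, and bars give the mean and SD of 6 libraries (cut at 0 for Casp4). For Casp1 the cKO libraries span 108 to 197 and the controls 24.7 to 58.7. The groups overlap in the other 8 panels, as they do for nearly all tested genes.

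No partner of Casp1 that could be tested was called higher, and Casp4 and Il1b had too few reads for that test. Of the 8 other members, 6 passed the filter on low values (a 12-library mean of 10 or more normalised reads). Of these 0 were called, against 0.834% of all tested genes, and for 6 genes a count of 0 is near that share. None had an unadjusted p under 0.05 either, against 9.73% of all genes, and edgeR and DESeq2 on recovered reads called 0 as well. All 6 had a log2 fold change below 0, with a median of -0.30 against 0.00 over all tested genes. Without control libraries 4 and 5, those rich in mitochondrial ribosomal RNA, 5 of the 6 were below 0 and their median was -0.08. Casp8 also turned above 0 without cKO library 1 or control library 3, and Gsdmd without cKO library 5 or control library 5. The cKO and control ranges overlapped for all 6. Nearly all tested genes had such overlap, since 0.813% lay wholly higher in the cKO and 0.194% wholly lower. For 6 genes, overlap throughout is near these shares and does not set the partners apart.

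Of the sensors, Nlrp3, which responds to potassium loss and many kinds of cell damage, had 12.1, 22.4, 9.67, 11.9, 28.1 and 10.3 normalised reads in cKO libraries 1 to 6 and 10.7, 22.9, 19.8, 28.2, 18.2 and 11.3 in control libraries 1 to 6. High and low libraries occurred in each genotype, and the ranges of 9.67 to 28.1 and 10.7 to 28.2 nearly coincided. Its log2 fold change was -0.25 (95% interval -0.91 to 0.40, limma adjusted p = 0.752). It lay between -0.44 (without cKO library 5) and -0.12 (without control library 4) when single libraries were left out, and was -0.05 without control libraries 4 and 5.

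Aim2, the sensor of cytosolic double-stranded DNA, had 21.2, 7.92, 29.0, 14.2, 20.5 and 17.5 normalised reads in cKO libraries 1 to 6, against 23.0, 25.5, 26.7, 28.2, 25.2 and 21.3 in control libraries 1 to 6. The controls lay close together, and 5 cKO libraries were below the lowest control while cKO library 3 was above the highest. Of the 5, cKO library 1, at 21.19, was nearly level with the lowest control, library 6, at 21.29. There 1 read equalled 0.757 normalised reads in cKO library 1 and 1.25 in control library 6. The log2 fold change was -0.51 (95% interval -1.04 to 0.02, limma adjusted p = 0.520). Among the tested partners this was the smallest unadjusted p, at 0.0596, and without cKO library 3 the adjusted p was 0.296. In GENCODE annotation of GRCm38 the span of Aim2 overlaps the opposite-strand gene Cadm3, and it has relatives of similar sequence. The sources used here do not say whether reads were counted by strand, and Aim2 values may include reads of other genes.

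Pycard, the adaptor, had 23.5, 19.8, 36.1, 11.9, 29.0 and 19.5 normalised reads in cKO libraries 1 to 6 and 22.2, 17.6, 25.8, 48.9, 55.9 and 31.3 in control libraries 1 to 6. Control libraries 4 and 5, those rich in mitochondrial ribosomal RNA, were above every cKO library, and the other 4 controls lay within the cKO range. The log2 fold change was -0.47 (95% interval -1.09 to 0.15, limma adjusted p = 0.564). It was 0.23 in Y-positive and -1.18 in Y-negative libraries, a difference of 1.41 with an unadjusted limma p of 0.00983 and an adjusted p of 0.562. Without control libraries 4 and 5 the log2 fold change of Pycard was -0.08 (limma adjusted p = 0.993). What part the ribosomal RNA share had in these values was not tested.

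Casp8, the initiator caspase of death receptors, which can also be drawn into ASC filaments, had 33.3, 37.6, 54.5, 52.2, 36.7 and 35.0 normalised reads in cKO libraries 1 to 6, against 33.7, 39.6, 59.3, 50.7, 33.6 and 43.8 in control libraries 1 to 6. The values of the genotypes were interleaved. The log2 fold change was -0.06 with a 95% interval of -0.45 to 0.33 (limma adjusted p = 0.912).

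Casp4, known in mice as caspase-11, binds bacterial lipopolysaccharide and cleaves gasdermin D, and was nearly silent. It had 4.54, 0.660, 1.76, 2.37, 5.12 and 2.06 normalised reads in cKO libraries 1 to 6 and 0, 0.880, 6.88, 15.03, 1.40 and 2.504 in control libraries 1 to 6. Its values rest on at most 8 reads in any library, and 4 cKO and 4 control libraries held 3 reads or fewer. It did not pass the filter, and the controls enclosed all cKO values. Its mean log2 level differed by -0.05 between cKO and control (exact permutation test, two-sided, n = 6 each, p = 0.942).

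Il18, whose precursor is cut by caspase-1, had 101, 110, 103, 65.2, 130 and 121 normalised reads in cKO libraries 1 to 6, against 85.6, 99.5, 133, 180, 186 and 136 in control libraries 1 to 6. Control libraries 3 to 6 were above every cKO library, and control libraries 1 and 2 lay within the cKO range. The log2 fold change was -0.35 (95% interval -0.75 to 0.04, limma adjusted p = 0.527). It was 0.00 in Y-positive and -0.71 in Y-negative libraries (unadjusted limma p of the difference 0.0496, adjusted p = 0.562), and -0.14 without control libraries 4 and 5 (limma adjusted p = 0.993). The span of Il18 overlaps the opposite-strand genes Bco2 and Tex12 in GENCODE annotation of GRCm38, as that of Pycard overlaps Gm45205, that of Il1b overlaps Il1bos and that of Casp8, on its own strand, Gm37760.

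Il1b, the precursor of interleukin-1 beta, had 4.54, 3.96, 2.64, 3.56, 4.27 and 3.09 normalised reads in cKO libraries 1 to 6 and 2.47, 4.40, 8.60, 1.88, 12.6 and 3.76 in control libraries 1 to 6. No library held more than 10 reads of it, and it did not pass the filter. Control libraries 3 and 5 had the 2 highest values, and the other 4 controls ran from 1.88 to 4.40, over most of the cKO range. The mean log2 level differed by -0.30 between cKO and control (exact permutation test, two-sided, n = 6 each, p = 0.442).

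Gsdmd, the pore-forming effector of pyroptosis, had 25.7, 23.8, 21.98, 23.7, 12.8 and 21.6 normalised reads in cKO libraries 1 to 6, against 28.0, 21.1, 34.4, 18.8, 26.6 and 12.5 in control libraries 1 to 6. The controls spread more widely and enclosed all cKO values. The log2 fold change was -0.09 (95% interval -0.55 to 0.38, limma adjusted p = 0.891). Across the 6 tested partners the highest upper limit of a 95% interval was 0.40, that of Nlrp3, beside the log2 fold change of 2.03 of Casp1. Without control libraries 4 and 5 the upper limits were 0.73 for Nlrp3, 0.59 for Gsdmd and 0.56 for Pycard, beside 2.14 for Casp1, and with array weights the highest was 0.61, for Nlrp3. The choice of Casp1 by its rise in these libraries favours such a distance from the partners.

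**Figure D2:**
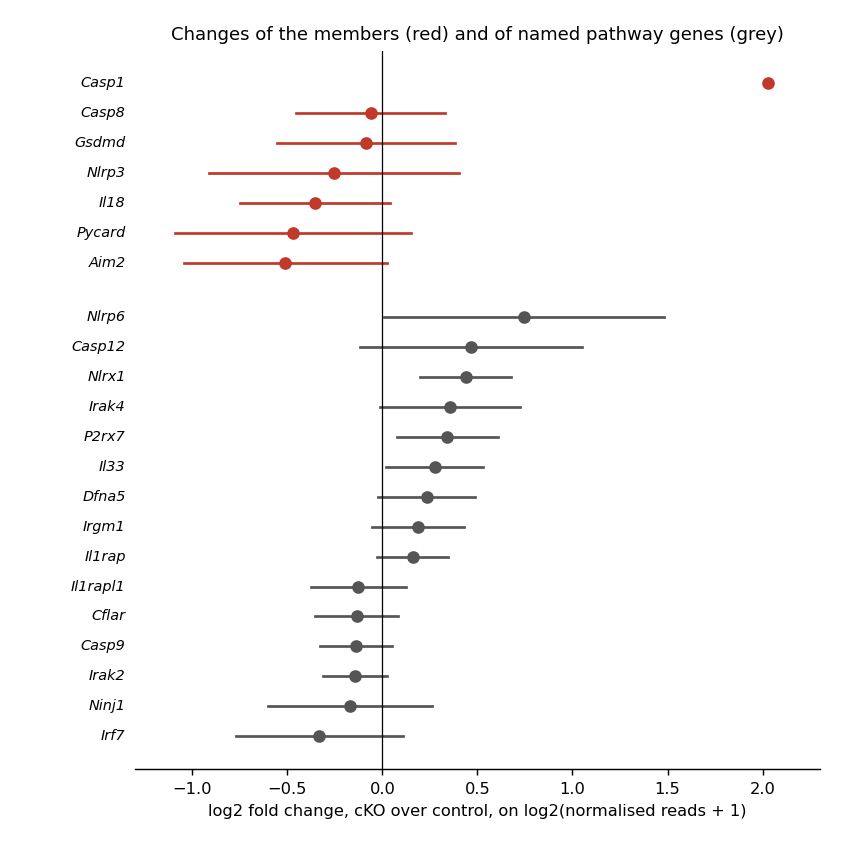
Log2 fold change of cKO over control for the 7 members that passed the filter (red) and for named pathway genes (grey), with 95% intervals from limma. Casp1 at 2.03 is shown without an interval because its rise chose it. In the main fit shown, no tested partner's interval reaches beyond 0.40 (0.73 without control libraries 4 and 5, 0.61 with array weights).

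Among the members ranked here, which leave out Pycard, Casp1 came next after Il18 by mean level in each genotype. Its distances from its neighbours differed. Expressed per kilobase of the median GENCODE transcript length, Casp1 stood at 102 ± 23.1 normalised reads per kilobase in the cKO and 24.8 ± 8.17 in controls (SD, n = 6 each). Il18 was the most abundant ranked member in each genotype, at 134 ± 28.6 normalised reads per kilobase in the cKO and 175 ± 52.3 in controls. The ranges of Il18 and Casp1 overlapped in the cKO, from 83.5 to 166 and from 72.3 to 132, and were apart in controls, from 110 to 238 and from 16.5 to 39.2. Within each library the per-kilobase ratio of Casp1 to Il18 was 0.547 to 1.57 in the cKO and 0.103 to 0.181 in controls. In controls Casp1 overlapped Casp8, the next gene in the order, at 23.1 ± 5.38 normalised reads per kilobase, while in the cKO every Casp1 value was above every Casp8 value (22.1 ± 4.94). The lower places had the same order in each genotype. These were Gsdmd at 12.1 ± 2.54 in the cKO and 13.1 ± 4.30 in controls, Aim2 at 7.48 ± 2.89 and 10.2 ± 1.01, Nlrp3 at 3.96 ± 1.93 and 4.65 ± 1.70, Il1b at 2.71 ± 0.533 and 4.14 ± 3.06, and Casp4 at 1.92 ± 1.20 and 3.10 ± 3.99 normalised reads per kilobase. From Gsdmd downwards the ranges of neighbours in this order overlapped, except those of Aim2 and Nlrp3 in controls. Casp8 and Gsdmd overlapped in controls and not in the cKO. Pycard was left out of the order because its annotated transcripts differ several-fold in length. Its place relative to Casp1 was not determined, and with Pycard the place of Casp1 might differ between the genotypes.

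Casp1 lies on mouse chromosome 9 directly before Casp4 and Casp12, genes of the same family. None of its tested neighbours was called, against 0.834% of all tested genes, and for so few genes this is near that share. Casp4 stood at 2.75 ± 1.72 normalised reads in the cKO and 4.45 ± 5.72 in controls. Casp12, an inflammatory caspase of mice, stood at 21.1 ± 7.99 normalised reads in the cKO and 15.2 ± 5.74 in controls (SD over 6 libraries each; log2 fold change 0.47, limma adjusted p = 0.551). Beyond the caspases, Pdgfd, a platelet-derived growth factor, had a log2 fold change of -0.40 by limma (adjusted p = 0.457) and Dync2h1, a dynein of cilia, one of 0.06 (adjusted p = 0.894). On the other side, Gria4, an AMPA receptor subunit, had a log2 fold change of 0.16 by limma (adjusted p = 0.525), 8430410K20Rik one of 0.07 (adjusted p = 0.800) and Kbtbd3 one of -0.06 (adjusted p = 0.888). No annotated gene overlaps Casp1 in GENCODE annotation of GRCm38.

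**Figure D3:**
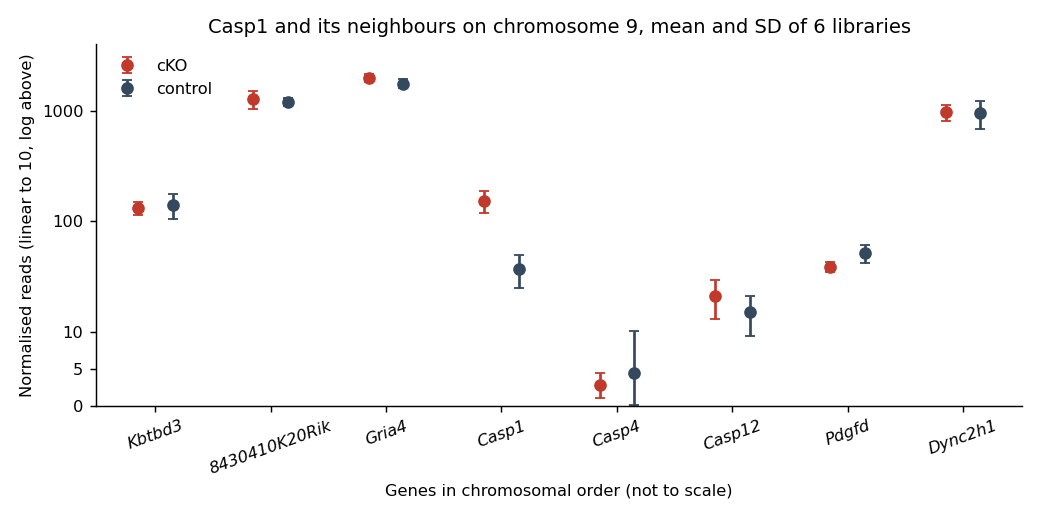
Normalised reads of Casp1 and the measured genes beside it on chromosome 9, in chromosomal order, as the mean and SD of 6 libraries per group, with cKO left of control. The axis is linear to 10 and logarithmic above. Casp1 is at 152 in the cKO and 37.2 in controls, and the error bars of the genotypes overlap for every other gene shown.

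The stretches before the start sites of Casp1 and of its nearly silent neighbour Casp4 are printed because the series concerns DNA methylation and the pair lies side by side. The sequences are the 250 bases upstream of the first listed start in RefSeq, build GRCm38.p6, plus strand, at chr9:5298267-5298516 for Casp1 and chr9:5308599-5308848 for Casp4. Capitals mark CG dinucleotides.
Casp1: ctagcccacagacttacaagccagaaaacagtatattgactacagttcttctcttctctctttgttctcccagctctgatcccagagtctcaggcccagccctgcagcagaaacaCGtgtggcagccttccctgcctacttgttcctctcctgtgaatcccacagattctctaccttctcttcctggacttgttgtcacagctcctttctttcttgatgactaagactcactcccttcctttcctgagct
Casp4: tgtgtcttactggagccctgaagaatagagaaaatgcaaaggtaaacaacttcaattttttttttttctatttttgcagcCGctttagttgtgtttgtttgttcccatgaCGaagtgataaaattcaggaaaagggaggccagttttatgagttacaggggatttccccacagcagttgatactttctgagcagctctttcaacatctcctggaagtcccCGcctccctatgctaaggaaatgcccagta
The Casp1 window holds 1 CG dinucleotide and the Casp4 window 3, against a median of 6 over 32841 RefSeq windows of the same length, and 18.8% of these hold no more than Casp1 does. Motifs were searched on both strands. The STAT-type element TTCNNNGAA was found in neither window and in 7.02% of all windows. The NF-kB consensus matched the Casp4 window at 3 positions that merge into 2 runs, did not match the Casp1 window, and was found in 7.25% of all windows. These are matches of letters and describe no binding.

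The wider pathway was read from 9 lists that hold 110 gene symbols besides the members, of which 105 were matched to a row and 78 passed the filter. None of the 78 was called, against 0.834% of all tested genes (limma; edgeR called 0 and DESeq2 1). An unadjusted p under 0.05 was found for 5 of them, or 6.41%, against 9.73% of all tested genes. Their median log2 fold change was -0.01, the range ran from -0.41 to 0.74, and 36 of 78 lay above 0. No gene of the 78 had its cKO libraries all above the controls, against 0.813% of all tested genes, or all below, against 0.194%. For 78 genes a count of 0 is near these shares.

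**Figure D4:**
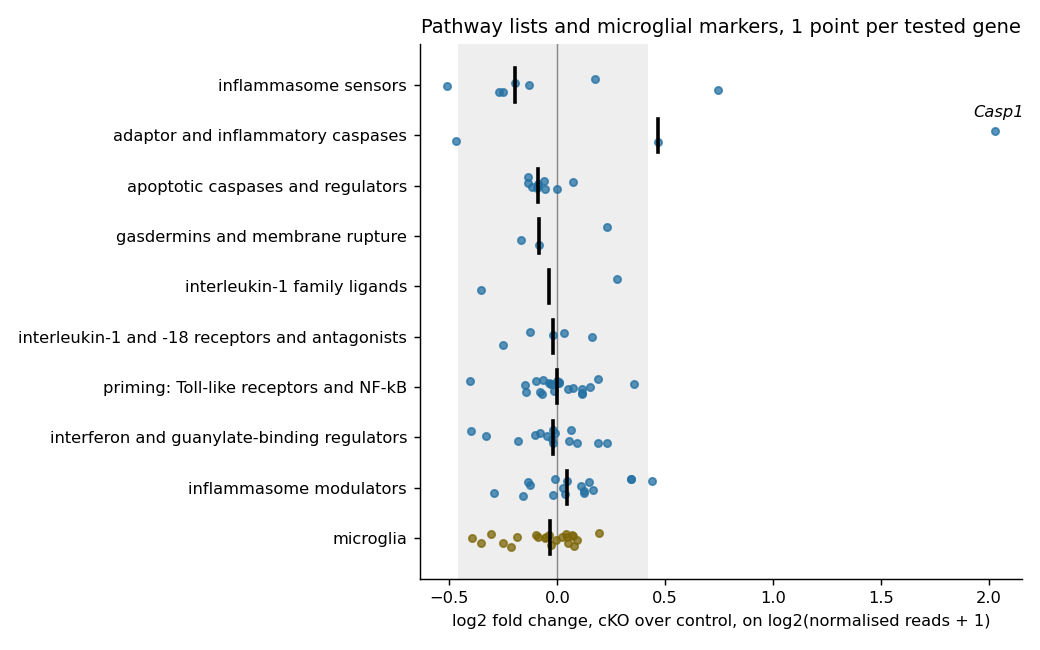
Log2 fold change of cKO over control for each tested gene of the pathway lists and of the microglial markers, with a black bar at each list's median. The grey band holds the central 95% of all tested genes, from -0.45 to 0.42. Casp1 at 2.03 is far to the right of every other point, and the list medians lie between -0.20 and 0.04 except in the list of 3 tested genes that contains Casp1.

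Of 13 sensors, 7 passed the filter and 0 were called, with a median log2 fold change of -0.20. Nlrp6, a sensor best known from the gut, had 17.2 ± 5.65 normalised reads in the cKO and 11.3 ± 9.18 in controls (SD over 6 libraries each; log2 fold change 0.74, limma adjusted p = 0.508). Control library 1, at 29.6, was above every cKO library, and the other controls, at 5.59 to 11.3, were below every cKO library. Several sensors, the Naip and Nlrp1 genes, have near-identical relatives among which reads can be divided.

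The list of the adaptor and the inflammatory caspases held Pycard, Casp1, Casp4 and Casp12, and besides Casp1 2 of them were tested, Pycard and Casp12, and 0 called.

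Of 12 apoptotic caspases and their regulators, 10 were tested and 0 called, with a median of -0.09 and 1 gene above 0. Casp9, the caspase of the mitochondrial pathway, had a log2 fold change of -0.14 by limma (adjusted p = 0.574) and Cflar, an inhibitor of caspase-8, one of -0.13 (adjusted p = 0.619). Of 10 gasdermin and membrane rupture genes, 3 were tested and 0 called. Dfna5, the older symbol of the gasdermin E gene, stood at 196 ± 37.4 normalised reads in the cKO and 165 ± 15.5 in controls (log2 fold change 0.23, limma adjusted p = 0.525). Ninj1, which ruptures the membrane of dying cells, had a log2 fold change of -0.17 by limma (adjusted p = 0.744).

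Of 9 listed ligands of the interleukin-1 family, 5 were matched to a row. Of these 2 were tested, Il18 and Il33, and 0 were called. Il33, a nuclear alarmin of glia, stood at 773 ± 141 normalised reads in the cKO and 634 ± 85.1 in controls (log2 fold change 0.28, limma adjusted p = 0.482). Of 11 receptors and antagonists, 5 were tested and 0 called, with a median of -0.02. Among them Il1rap, the shared receptor chain, had a log2 fold change of 0.16 by limma (adjusted p = 0.532) and Il1rapl1, a synaptic relative, one of -0.13 (adjusted p = 0.682).

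Transcription of inflammasome genes is primed through Toll-like receptors and NF-kB. Of 25 such genes, 23 were tested and 0 called, their median log2 fold change was 0.00, and 12 of 23 lay above 0. Irak4, the kinase next to MyD88, had a log2 fold change of 0.35 by limma (adjusted p = 0.520) and Irak2, a relative, one of -0.14 (adjusted p = 0.532). Of 16 listed interferon and guanylate-binding regulators, 15 were matched to a row, and all 15 were tested and 0 called, with a median of -0.02. Irgm1, an interferon-induced GTPase, had a log2 fold change of 0.19 by limma (adjusted p = 0.561) and Irf7 one of -0.33 (adjusted p = 0.565).

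Of 19 modulators, 17 were tested and 0 called, with a median of 0.04. Nlrx1, a mitochondrial member of the NLR family, came nearest to the threshold, with 231 ± 18.1 normalised reads in the cKO and 173 ± 32.5 in controls (SD over 6 libraries each; log2 fold change 0.44, 95% interval 0.20 to 0.68, limma adjusted p = 0.118). DESeq2 on recovered reads called it (adjusted p = 0.0333), as did limma without control library 6 (adjusted p = 0.0200), whereas edgeR gave an adjusted p of 0.146. Without control libraries 4 and 5 its log2 fold change was 0.30 (limma adjusted p = 0.744). P2rx7, the ATP-gated channel upstream of NLRP3, had a log2 fold change of 0.34 by limma (adjusted p = 0.438). Kcnk6, a potassium channel also linked to NLRP3 and named after its values were seen, had a log2 fold change of 0.34 by limma (adjusted p = 0.452).

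The cell types that express inflammasome genes were then read beside Casp1. The 22 microglial markers summed to 10155 to 12342 normalised reads in the cKO and 9926 to 12527 in controls, 0 of 22 were called, and their median log2 fold change was -0.03. Per 1000 normalised reads of these markers, Casp1 had 9.35 to 19.4 in the cKO and 2.48 to 4.95 in controls, a ratio of means of 4.18. On the same scale Il18 had 9.11 ± 1.71 in the cKO and 11.7 ± 2.86 in controls, and Pycard 2.01 ± 0.649 and 2.87 ± 1.19 (SD, n = 6 each). Relative to the microglial markers, the genotypes were apart for Casp1, which its choice favoured, and overlapped for Il18 and Pycard. The 8 markers of border macrophages summed to 484 to 634 normalised reads in the cKO and 456 to 695 in controls, with 0 of 7 tested called. The 12 neutrophil and monocyte markers summed to 5.28 to 11.3 in the cKO and 3.29 to 16.8 in controls, none passed the filter, and 2, Ly6g and Elane, were at 0 in all 12 libraries. The 12 lymphocyte markers summed to 16.6 to 41.3 in the cKO and 26.3 to 58.8 in controls, mostly from Cd4, and 2 of the 12 were at 0 in every library. Markers of blood-borne cells were thus scarce in every library, while those of resident cells were abundant. Endothelial markers summed to 3341 to 3814 normalised reads in the cKO and 3379 to 3884 in controls, with 0 of 10 called. Of 10 astrocyte markers 1 was called, Aqp4, the water channel of astrocyte endfeet (log2 fold change 0.53, limma adjusted p = 0.00973), and of 10 oligodendrocyte markers 0. The median log2 fold change of the astrocyte markers was -0.003, and 5 of 10 lay above 0. Over all tested genes 0.834% were called, so a count of 0 in marker lists of this size is near that share. Astrocyte markers summed to 127522 to 165793 normalised reads in the cKO and 118277 to 189702 in controls, and oligodendrocyte markers to 71902 to 99334 in the cKO and 70937 to 122526 in controls. Both sums were highest in control libraries 4 and 5, where Il18 and Pycard were highest too, and the part of these markers in those values was not tested. Which cells carried the added Casp1 RNA was not tested, and in whole cortex a change in the number of expressing cells and in the RNA per cell cannot be told apart.

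**Figure D5:**
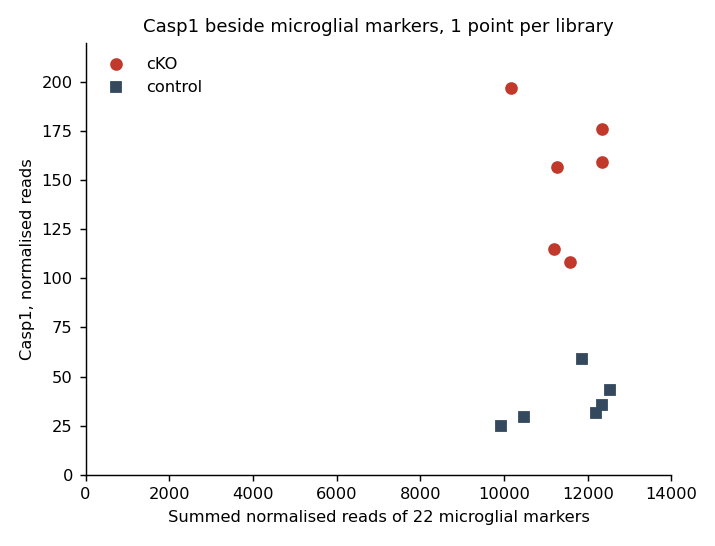
Casp1 in normalised reads against the summed normalised reads of 22 microglial markers, 1 point per library. The cKO libraries lie at 108 to 197 on the Casp1 axis and the controls at 24.7 to 58.7, over similar marker sums of 10155 to 12342 and 9926 to 12527.

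Genes whose level followed that of Casp1 were ranked by likeness. Likeness was the Pearson correlation of log2(value + 1) over the 12 libraries, among genes averaging 50 or more normalised reads and not carrying a predicted-model symbol, and it includes any genotype difference that the genes share. Of the tested partners, Il18 alone is abundant enough to enter this ranking. The 6 highest were As3mt (r = 0.95), Ppm1m (0.95), Cpxm2 (0.94), Vill (0.93), Pcbd1 (0.92) and Hrasls (0.92). As3mt, an arsenic methyltransferase, stood at 289 normalised reads in the cKO and 173 in controls, and Pcbd1, a pterin dehydratase, at 115 and 60.1. After the means of each genotype and library set were removed, As3mt again had the highest correlation with Casp1, at 0.94, followed by Bccip (0.94), Poc1a (0.93), Fam32a (0.93), Timm17a (0.93) and Mterfd3 (0.93). Of the first 6, the correlation within groups was 0.77 for Pcbd1, 0.59 for Ppm1m, 0.45 for Cpxm2, 0.28 for Hrasls and -0.15 for Vill. Bccip, Poc1a, Fam32a, Timm17a and Mterfd3 had log2 fold changes between -0.15 and -0.04 and none was called. Among the members, the same within-group correlation with Casp1 was 0.65 for Gsdmd, 0.46 for Pycard, 0.40 for Casp8, 0.30 for Aim2, 0.16 for Il18 and -0.14 for Nlrp3. All these values share the depth and the scaling of the same 12 libraries, and they are given as descriptions. The ranked genes are the extremes of many compared over only 12 libraries, where high correlations can also arise by chance.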

How the data were processed

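The deposited table holds 1 column per library with a signal that is, per the file headers, a read count normalised by the authors with DESeq2, and the authors' own comparison (log2 fold change and its standard error, a Wald score, p-value and adjusted p-value), which is not quoted. Tools listed in the submitters' processing notes, with no role given, are STAR, Bowtie, Trim Galore and bedtools, and the build is mm9. All values were whole multiples of a step per library (tolerance 0.01 reads), which gave whole reads, and 3 reads equalled 1.98 to 5.64 normalised reads.

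The members and lists were chosen with earlier results of these data known. The 14397 genes averaging 10 or more normalised reads were tested with limma 3.58.1 (trend, R 4.3.3, two-sided, Benjamini-Hochberg over all) on log2(value + 1), with genotype and the split by Y-linked reads. Fold changes are on this scale, in which a larger added value draws low genes towards 0. A DESeq2 1.42.0 fit of that model returned the deposited log2 fold changes within 9.24e-09. edgeR 4.0.16 and DESeq2 were alternatives on recovered reads. Column numbers were not used as a pairing in the main fit, and a fit with them as a block is given below. Deviations of same-numbered libraries correlated at 0.197, 0.455 and 0.480 for columns 1 to 3. For columns 4 to 6 the correlations were 0.045, -0.098 and 0.034. Named were the members, the called genes and the 2 genes of smallest p of each list, neighbours, the genes most like Casp1, and Nsd1. List symbols were matched through RefSeq synonyms. Promoters were matched for 8 of 9 members. The fit was tested on simulated data. Precision at low levels is limited by the reads given.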

Additional observations from a re-analysis of the deposited data

Results flagged for a closer look

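In groups of 6 libraries, a value was taken up here when its gap to the nearest other library exceeded 0.625 of the group's range. This was so for 6 of 82 groups examined, and chance gives about 1 in 20. Among the members it applied to Gsdmd in cKO library 5, at 12.8 normalised reads where the other cKO libraries had 21.6 to 25.7. Nlrp6 had 29.6 in control library 1, against 5.59 to 11.3 in the other controls. Casp12 had 36.9 in cKO library 3, against 14.5 to 19.7 in the other cKO libraries. Ninj1 had 138 in control library 2, against 203 to 240 in the other controls. The other 2 were neighbours of Casp1 on the chromosome, 8430410K20Rik with 1745 in cKO library 4 (1106 to 1240 in the others) and Gria4 with 2058 in control library 2 (1619 to 1782 in the others).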

How the results depend on the processing

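Over 24 alternative settings Casp1 kept a log2 fold change of 1.91 to 2.14, from which nothing is read, since these values chose it. No partner was called in any of the 139 values that passed the filter (smallest adjusted p = 0.296, by limma for Aim2 without cKO library 3). Calls over all genes numbered 58 with a filter of 50 normalised reads, which tests fewer genes, and 97 to 123 with single libraries left out. The replicate block gave 118 calls, 0 partners and 0 pathway genes. Pathway calls numbered 1 with DESeq2 (Nlrx1) and 0 to 1 with single libraries left out. Calls of a difference between library sets numbered 3 with DESeq2, 0 to 7 with single libraries left out (7 without control library 6) and 4667 with array weights, whose estimate did not converge there. Some log2 fold changes that were not called changed sign. Without control libraries 4 and 5 they were 0.054 for Gsdmd, 0.35 for Casp4, -0.0172 for 8430410K20Rik and 0.15 for Kbtbd3. With array weights they were -0.0129 for 8430410K20Rik, 0.12 for Kbtbd3 and 0.0032 for Ninj1. With pseudocount 0.5 Casp4 had 0.045. With single libraries left out the ranges were -0.15 to 0.042 for Casp8, -0.21 to 0.018 for Gsdmd, -0.42 to 0.38 for Casp4, -0.29 to 0.052 for Ninj1, -0.032 to 0.11 for 8430410K20Rik, -0.17 to 0.035 for Kbtbd3 and -0.060 to 0.16 for Dync2h1. The cause was not tested. Depth limits Casp4 and Il1b most, at no more than 8 and 10 reads per library.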
